A study of Mus musculus with 7 samples.

Results

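The alpha and beta V segments of the T cell receptor were followed in RNA-seq libraries of tumour-infiltrating CD8 T cells from MCA205 tumours. They were chosen as the genes annotated as T cell receptor V genes whose names begin with Trav or Trbv and that reached at least 1 TPM (a measure of transcript abundance that corrects for gene length) in at least 3 of the 7 libraries. Of 132 such genes in the table of 55357 genes, 120 met the rule: 99 of 110 Trav and 21 of 22 Trbv genes. MCA205 is a transplantable mouse fibrosarcoma line. It was grown under the skin of Slc29a1-/- mice (ENT1KO, replicates 11, 12, 14 and 15) or wild-type C57Bl/6 mice (WT, replicates 1, 2 and 3), and live CD45+ CD8+ cells were sorted after 14 days. Slc29a1 encodes ENT1, a nucleoside transporter. The host lacked the gene while the implanted tumour line was the same in both groups, and the labels state no age, sex or pooling of animals. Values per library are listed in the order ENT1KO replicates 11, 12, 14 and 15, then WT replicates 1, 2 and 3. Nothing in the labels says that each library is a separate animal, so the spread between libraries may be partly technical.

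A T cell builds its receptor by joining V, D and J gene segments of the beta locus and V and J segments of the alpha locus, each time with junctions made at random. The V segment encodes most of the variable domain, including the loops that mainly touch the MHC molecule. All daughters of a T cell keep its V segments, so in a sorted population the share of a V segment reflects both the starting repertoire and which clones have grown. The share of a V segment in its chain (its TPM as a percent of the summed TPM of all members of that chain in the same library) is called usage below. In bulk RNA a larger share of cells with a segment and more receptor RNA per cell cannot be told apart, and alpha and beta segments cannot be paired.

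The 3' ends of the segments that the results turn on show what the reads had to tell apart. The last 90 bases are printed from the GENCODE M21 transcript of each gene, 5' to 3', with the codon of the conserved cysteine before the junction in capitals where the search found it. First come the 4 beta segments with the highest usage in any single library, Trbv13-3 as the close relative of Trbv13-2, Trbv31, which was high in a single library, and Trbv26, whose usage separated the genotypes.
Trbv13-1: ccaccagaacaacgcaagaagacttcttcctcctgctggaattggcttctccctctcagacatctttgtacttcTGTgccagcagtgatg
Trbv13-2: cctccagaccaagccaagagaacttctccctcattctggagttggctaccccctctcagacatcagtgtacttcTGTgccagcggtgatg
Trbv13-3: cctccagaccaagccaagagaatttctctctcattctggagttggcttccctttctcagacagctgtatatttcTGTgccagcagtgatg
Trbv4: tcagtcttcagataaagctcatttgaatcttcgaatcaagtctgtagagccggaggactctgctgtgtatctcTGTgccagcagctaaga
Trbv29: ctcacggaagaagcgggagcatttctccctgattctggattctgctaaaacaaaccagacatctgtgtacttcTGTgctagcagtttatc
Trbv31: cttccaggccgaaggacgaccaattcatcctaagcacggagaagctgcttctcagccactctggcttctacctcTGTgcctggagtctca
Trbv26: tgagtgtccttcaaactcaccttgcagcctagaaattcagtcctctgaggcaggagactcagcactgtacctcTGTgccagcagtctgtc
Over the last 280 bases Trbv13-2 and Trbv13-3, at 91.4% identity, were the closest pair among the beta members. Trbv12-1 and Trbv12-2 were 88.9% identical, Trbv13-1 and Trbv13-2 88.2%, and Trbv13-1 and Trbv13-3 85.4%. The alpha locus is different, because in mice a stretch of it is present in tandem copies, whose genes carry the letters d and n. The next sequences show the alpha segments with the highest usage, the near-identical Trav16 trio, and a pair of copies that reads cannot separate.
Trav12-2: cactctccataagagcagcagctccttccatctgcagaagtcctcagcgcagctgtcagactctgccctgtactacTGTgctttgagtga
Trav7-2: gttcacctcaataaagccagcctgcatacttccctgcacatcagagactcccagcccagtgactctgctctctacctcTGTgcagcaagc
Trav16: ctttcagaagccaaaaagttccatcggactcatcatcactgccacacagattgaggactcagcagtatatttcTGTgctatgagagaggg
Trav16n: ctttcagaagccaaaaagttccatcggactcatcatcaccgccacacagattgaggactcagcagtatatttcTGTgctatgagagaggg
Trav16d-dv11: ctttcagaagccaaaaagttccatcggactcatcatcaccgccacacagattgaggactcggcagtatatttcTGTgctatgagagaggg
Trav6-6: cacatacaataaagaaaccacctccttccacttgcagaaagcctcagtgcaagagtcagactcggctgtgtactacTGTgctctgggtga
Trav6d-6: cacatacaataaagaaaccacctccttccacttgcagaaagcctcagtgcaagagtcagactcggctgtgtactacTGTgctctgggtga
Of the 99 Trav members, 32 were identical to another member over the last 280 bases and 83 were at least 95% identical to one, with a median of 98.9%. A total of 15 groups of copies, 30 genes in all, such as Trav6-6 and Trav6d-6, had the same TPM in every library, so the 99 Trav members gave 84 distinct profiles. Values of single Trav copies are therefore uncertain, while Trbv values are less exposed to shared reads.

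The targeted gene was lower in every library labelled ENT1KO, and the genotypes differed in cell content. Slc29a1 had TPM values of 13.59, 13.18, 17.61 and 15 in ENT1KO against 51.01, 58.85 and 49.73 in WT. The 13 genes listed as markers of CD8 T cells all rose in ENT1KO and summed to 10097 to 12410 TPM there and 3137 to 7616 TPM in WT. They are not all specific to CD8 T cells. They include Cd8a, Cd8b1, Cd3d, Cd3e, Cd3g, Cd247, Trac, Trbc1 and Trbc2, whose rise is described again below. All 10 fibroblast and tumour markers and all 8 macrophage markers fell, with sums of 6.31 to 791 against 3750 to 7034 TPM and of 79.4 to 802 against 2257 to 3414 TPM. Cd4 and Foxp3 both fell and summed to 1.4 to 2.26 TPM in ENT1KO and 3.32 to 4.85 TPM in WT. Of 5 B cell markers 2 were tested and both rose, and the 5 summed to 89.95 to 171 TPM in ENT1KO and 58.5 to 102 TPM in WT. Markers of gamma-delta T cells summed to 116 to 195 TPM in ENT1KO and 51.2 to 108 TPM in WT. The part of these other cell types in the V segment levels was not tested. Trav11, the V segment of the invariant NKT receptor, was listed at 0 in all 7 libraries. Trav11d, its counterpart with the letter d, stood at 2.18, 11.97, 3.81 and 1.27 TPM in ENT1KO and 2.97, 0.67 and 0.48 TPM in WT. The 4 NKT and MAIT markers (Trav11, Trav11d, Trav1 and Zbtb16) summed to at most 40.1 TPM. Each library held 18624318 to 19660792 reads assigned to genes, as read from the steps of the authors' normalized counts.

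Receptor V transcripts were about 2 times as abundant in ENT1KO libraries, in both chains. Summed Trav TPM was 1318, 1450, 1329 and 1470 in ENT1KO against 624, 425 and 1051 in WT. Summed Trbv TPM was 2450, 2538, 2047 and 2390 in ENT1KO against 1050, 632 and 1577 in WT. In both chains the genotypes did not overlap, WT replicate 3 lay nearest to ENT1KO, and WT replicate 2 was the lowest. The means were 1392 ± 79.3 (SD, n = 4) against 700 ± 319 TPM (SD, n = 3) for Trav and 2356 ± 215 (SD, n = 4) against 1086 ± 473 TPM (SD, n = 3) for Trbv, ratios of 1.99 and 2.17. Without WT replicate 2 the means differed by 66.2% for Trav and 79.4% for Trbv, and without WT replicate 3 by 165% and 180%, where all libraries gave 98.8% and 117%.

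The constant genes, to which the rearranged V segment of the same chain is spliced, moved in step. Trac, the alpha constant gene, stood at 1635 ± 114 (SD, n = 4) against 772 ± 334 TPM (SD, n = 3), a log2 difference of 1.17 (limma-trend adjusted p = 0.00731). Here and below a log2 difference subtracts WT from ENT1KO after log2(TPM + 1), a scale that understates changes of low genes. The beta constant genes Trbc1 and Trbc2 rose by 1.03 and 1.23 on that scale (limma-trend adjusted p = 0.0155 and 0.00634). All 4 genes of the CD3 signalling chains and both coreceptor genes, Cd8a and Cd8b1, rose as well, by 1.09 to 1.26. Set against Trac, summed Trav TPM was 0.858, 0.817, 0.859 and 0.874 in the ENT1KO libraries and 0.884, 0.894 and 0.926 in the WT libraries. That ratio was 5.49% lower in ENT1KO on TPM but 3.98% higher on the normalized counts, so its direction rested on the table used. Summed Trbv TPM per summed TPM of Trbc1 and Trbc2 was 1.127, 1.095, 1.048 and 1.119 against 1.150, 1.009 and 1.041, with overlap between the genotypes. Rag1, Rag2 and Ptcra, which act while receptors are first assembled, stayed at or below 0.32 TPM in every library, and Dntt, which adds junctional bases, did not pass (1.71 ± 0.724 against 1.46 ± 0.625 TPM, n = 4 and 3, limma-trend adjusted p = 0.703).

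**Figure D1:**
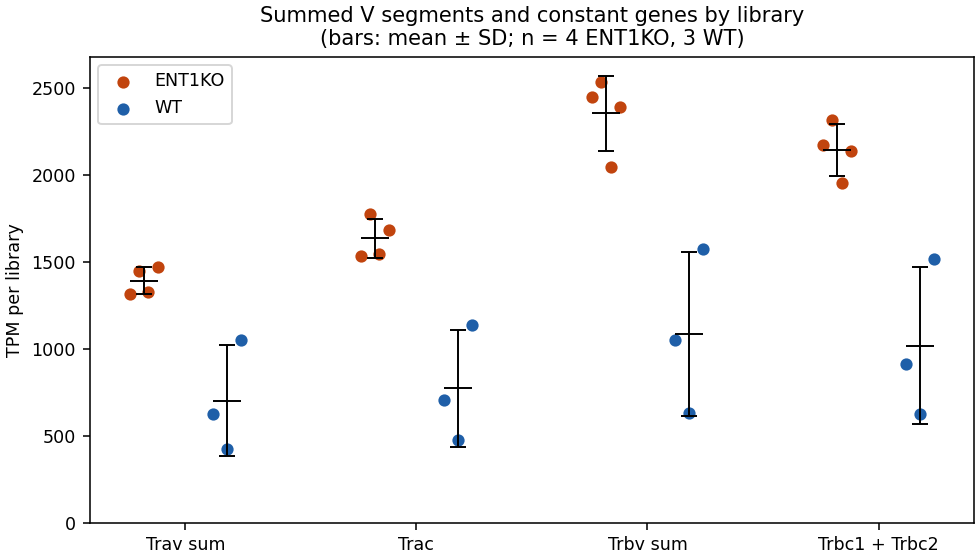
Summed TPM of the 99 Trav and 21 Trbv members and of the constant genes of the same chains, with a point per library and bars for the mean ± SD (n = 4 ENT1KO, n = 3 WT). The ENT1KO libraries lie above the WT libraries in each of the 4 columns, and the WT libraries are spread more widely.

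In the limma-trend fit of TPM, single V segments were called higher at a rate near that of all tested genes, and none was called lower. Of the 120 members, 38 were higher in ENT1KO at a limma-trend adjusted p of 0.05, which is 31.7%, where 27.5% of all 13798 tested genes were. These were 30 of 99 Trav and 8 of 21 Trbv segments, and copies with the same TPM bring the 38 down to 33 distinct profiles. No member was lower in limma-trend, where 23.1% of all genes were, and none of the 47 members with an unadjusted p under 0.05 was lower. TPM was higher in every ENT1KO library than in any WT library for 35 members (27 Trav and 8 Trbv) and lower for 0, where 30.3% and 24.9% of all tested genes were. The median log2 difference was 0.83 for Trav and 1.12 for Trbv against 0.145 for all tested genes. The rate was farther from that of all genes in the authors' deposited table. Of the 79 members with an adjusted p there, 28 (35.4%) passed 0.05 as higher and 0 as lower. Of all genes, 16.5% and 25.8% did. The count of 38 fell to 15 without WT replicate 2, to 18 without WT replicate 1 and to 25 without ENT1KO replicate 11, and it was 18 on the normalized counts.

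Trav12-2 had the largest log2 difference of all members. This alpha segment (chromosome 14, 53853772 to 53854371, GRCm39) had TPM values of 157.45, 130.19, 212.77 and 58.23 in ENT1KO against 17.47, 10.23 and 39.53 in WT. Every ENT1KO library lay above every WT library, with ENT1KO replicate 15 the lowest of its group. The log2 difference was 2.65 (SE 0.53, limma-trend adjusted p = 0.00571), and it kept its call with any single library left out. Its log2 fold change in the authors' deposited table was 2.49.

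Among the beta segments that passed the test, Trbv1 and Trbv13-2 had the largest log2 differences. Trbv1 (chromosome 6, 40868163 to 40868819), the segment farthest from the J genes among the beta members, had TPM values of 44.87, 145.67, 125.38 and 75.5 in ENT1KO against 19.76, 11.59 and 36.28 in WT, a log2 difference of 2.07 (SE 0.48, limma-trend adjusted p = 0.00987). Trbv13-2 (chromosome 6, 41098330 to 41098766) had TPM values of 226.66, 260.71, 420.99 and 147.85 against 56.99, 62.88 and 105.98, a log2 difference of 1.75 (SE 0.35, limma-trend adjusted p = 0.00571). The genotypes did not overlap for either, and both calls held with any single library left out. Trbv31 lay between them at 1.91 but did not pass (limma-trend adjusted p = 0.0764), with 199.73 TPM in ENT1KO replicate 12 and 19.36 to 27.17 TPM in the other ENT1KO libraries, against 6.76 to 16.47 TPM in WT.

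Other named segments rose with less stable calls. Trav16d-dv11 (32.3 ± 16.8 against 6.13 ± 6.32 TPM), Trav7-5 (37.1 ± 30.004 against 6.67 ± 3.29 TPM) and Trav4-3 (28.9 ± 19.03 against 6.34 ± 4.19 TPM) rose by 2.39, 2.07 and 1.93 on the log2 scale. Trav7-5 lost its call without WT replicate 1 or 2 (limma adjusted p = 0.056 and 0.1), Trav16d-dv11 without ENT1KO replicate 11, 12 or 15 or WT replicate 2 or 3 (0.0521 to 0.125), and Trav4-3 without ENT1KO replicate 11, 14 or 15 or WT replicate 1 or 2 (0.0553 to 0.169). Trav3-3 rose by 1.34 and kept its call without any single library. Trav13-1 (1.65), Trbv29 (1.59), Trbv12-2 (1.12) and Trbv16 (0.87) also passed. Trbv16 lost its call without WT replicate 1 or 2 (limma adjusted p = 0.0644 and 0.075), and the other 3 each lost it without any of 5 libraries, WT replicate 2 always among them (0.138, 0.161 and 0.0858).

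Levels were also set against the constant genes. With the mean log2 level of Trac, Trbc1 and Trbc2 subtracted in each library, an alternative chosen after the data were seen, 5 members were higher and 20 lower, where 0.188% and 63.8% of all genes were. All genes share the spread of the constant genes on that scale, so its limma p-values are too small. The 5 were Trav12-2 (1.51), Trav16d-dv11 (1.24), Trav7-5 (0.93), Trbv1 (0.93) and Trav4-3 (0.79). On that scale Trbv26 was 1.80 lower and Trav8n-2 1.61 lower, and Trbv2, Trbv5, Trbv20 and Trbv23 were the other beta segments called lower.

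Usage of Trbv26 separated the genotypes most widely in the beta chain. Trbv26 (chromosome 6, 41204439 to 41204927) made up 1.92%, 1.07%, 3.94% and 3.32% of Trbv TPM in ENT1KO and 8.17%, 6.94% and 10.3% in WT. The means were 2.56% ± 1.3 (SD, n = 4) and 8.48% ± 1.71 (SD, n = 3). In the normalized counts the shares were 1.84%, 1.17%, 3.80% and 3.09% against 7.36%, 7.26% and 10.04%, again without overlap. Its TPM did not pass (58.5 ± 26.03 against 97.4 ± 60.2, n = 4 and 3, log2 difference -0.66, limma-trend adjusted p = 0.305). Summed Trbv TPM was lower in WT. Trbv5 and Trbv23 were the other Trbv segments whose usage was lower in every ENT1KO library than in any WT library, which makes 3 of 21. TPM per summed Trbv TPM was lower without overlap for 63.7% of all tested genes and higher for 0.529%. Those rates carry the higher summed Trbv TPM of ENT1KO, while usage is a share within the chain, so the count cannot be read against them. No Trbv segment was higher without overlap. Trbv23 was rare, at most 0.904% of Trbv TPM. Trbv23 was named for this count after its values were seen.

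Trav12-2 was the alpha segment whose usage differed most between genotypes. It made up 11.9%, 8.98%, 16.0% and 3.96% of Trav TPM in ENT1KO and 2.80%, 2.40% and 3.76% in WT. In the normalized counts its lowest ENT1KO share, 7.29% in replicate 15, fell below the 7.53% of WT replicate 3, so the separation on TPM rests on a narrow gap. Trav5d-4 and Trav5n-4, copies with the same TPM at 0.944% or less, were the other Trav members higher without overlap. Trav8n-2 (0.36% to 1.46% against 2.03% to 3.04%), Trav3-1 and the copies Trav3d-3 and Trav3n-3 were lower without overlap. Together these were 3 higher and 4 lower of 99 Trav members, with copies of the same TPM counted separately. TPM per summed Trav TPM was higher without overlap for 0.768% and lower for 54.4% of all tested genes. Those rates carry the higher summed Trav TPM of ENT1KO, so the counts cannot be read against them. On normalized counts Trav8n-2 was again lower without overlap, Trav3-1 overlapped, and Trav5d-4, Trav5n-4, Trav3d-3 and Trav3n-3 were at 0. Trav5d-4, Trav5n-4, Trav3-1, Trav3d-3 and Trav3n-3 were named for this count after their values were seen.

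**Figure D2:**
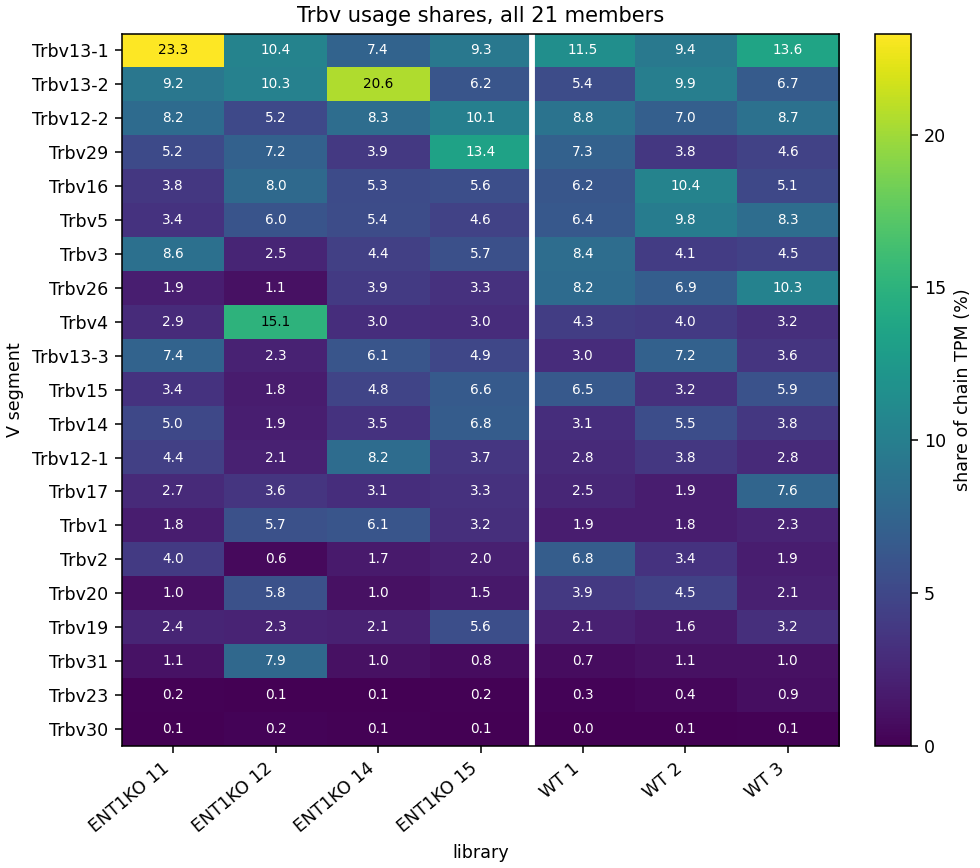
Usage of all 21 Trbv members, as the percent of summed Trbv TPM (colour and printed value) in each library (columns, ENT1KO left of the white line and WT right of it), ordered by mean usage. Single cells stand out in each ENT1KO column, such as Trbv13-1 at 23.3% in replicate 11 and Trbv13-2 at 20.6% in replicate 14, and Trbv26 is low across the ENT1KO columns.

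On TPM each ENT1KO library had its own leading beta segment. Trbv13-1 led in ENT1KO replicate 11 with 23.3% of Trbv TPM, Trbv4 in replicate 12 with 15.1%, Trbv13-2 in replicate 14 with 20.6% and Trbv29 in replicate 15 with 13.4%. In WT the leaders were Trbv13-1 in replicates 1 and 3, with 11.5% and 13.6%, and Trbv16 in replicate 2 with 10.4%. All WT libraries thus had a leader no larger than 13.6%, just above the smallest ENT1KO leader.

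Several beta segments, leaders among them, were high in a single library. Trbv4 took 2.85%, 15.08%, 3.01% and 2.97% in ENT1KO and 4.25%, 3.98% and 3.16% in WT. Trbv31, which lies downstream of the other Trbv genes and of the J genes, took 1.11%, 7.87%, 1.01% and 0.81% in ENT1KO and 0.73%, 1.07% and 1.04% in WT. Both excesses sat in ENT1KO replicate 12, the other libraries being close together. Trbv13-2 was at 9.25%, 10.27%, 20.57% and 6.19% in ENT1KO and 5.43%, 9.94% and 6.72% in WT, with replicate 14 far above the rest. Trbv13-1 was at 23.31%, 10.40%, 7.40% and 9.32% in ENT1KO and 11.47%, 9.39% and 13.60% in WT. Although their sequences are alike, Trbv13-1 was high in ENT1KO replicate 11 and Trbv13-2 in replicate 14, not both in the same library. Trbv29 was at 5.20%, 7.25%, 3.87% and 13.42% in ENT1KO and 7.28%, 3.82% and 4.55% in WT. Trbv2, which led no library, was at 6.84% in WT replicate 1 against 3.37% and 1.87% in the other WT libraries.

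The deposited tables disagree on Trbv4 and Trbv5. Of the 19 Trbv segments with a median usage of at least 1% on TPM, these 2 had under 20% of that share in the normalized counts. Trbv5 had a median of 6.04% on TPM and 0.24% on normalized counts, and Trbv4 3.16% and 0.34%. Both lie inside the long noncoding gene 5830405F06Rik (chromosome 6, 41032817 to 41040036), and no other Trbv member overlaps a gene outside the receptor loci. No label states how reads of overlapping genes were counted. Trbv4 kept its excess in ENT1KO replicate 12 on the normalized counts, with 1.40% against 0.29% to 0.58% in the other libraries. The overlapping noncoding gene was also at its highest there, at 11.66 TPM against 1.06 to 4.11 TPM elsewhere. The lower usage of Trbv5 in ENT1KO was not seen on the normalized counts, where the genotypes overlapped.

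Alpha leaders also differed between libraries. Trav12-2 led in ENT1KO replicates 11 and 14, Trav7-2 in ENT1KO replicate 12 with 12.8% and in WT replicate 2 with 7.29%, Trav16n in ENT1KO replicate 15 with 4.71%, Trav7n-4 in WT replicate 1 with 5.86% and Trav16 in WT replicate 3 with 6.30%. Trav7-2 was at 1.61%, 12.76%, 2.29% and 1.40% in the ENT1KO libraries and 3.57%, 7.29% and 4.04% in WT. It was listed at 0 normalized counts in every library, so its TPM has no second measure. Trav13-1 was also high in ENT1KO replicate 12, at 10.3% on TPM and 20.3% on normalized counts. Trav15-2-dv6-2, a segment that can also join the delta chain, took 3.77% in ENT1KO replicate 14 and at most 0.23% in any other library. Trav14n-3 (3.56%) and Trav13n-1 (3.66%) were high in ENT1KO replicate 15.

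WT libraries had single high alpha segments too. Trav7n-4 took 5.86% in WT replicate 1 and at most 0.39% elsewhere. In WT replicate 2, Trav7-3 (4.65%), Trav21-dv12 (4.56%) and Trav8d-2 (3.71%) stood at 3 or more times their median over the libraries, as did Trav12-1 (4.67%) and Trav10n (3.97%) in WT replicate 3 and Trav5-4 (3.55%) in WT replicate 1. Counting segments at 3% or more of their chain and at 3 or more times their median usage, the alpha chain had 3, 1, 2 and 2 in the ENT1KO libraries and 2, 3 and 2 in the WT libraries. Single high alpha segments thus occurred in both genotypes. In ENT1KO replicates 11, 12 and 14 those segments held 21.9%, 12.8% and 19.8% of Trav TPM, in ENT1KO replicate 15 7.22%, and in the WT libraries 9.41%, 12.9% and 8.65%.

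**Figure D3:**
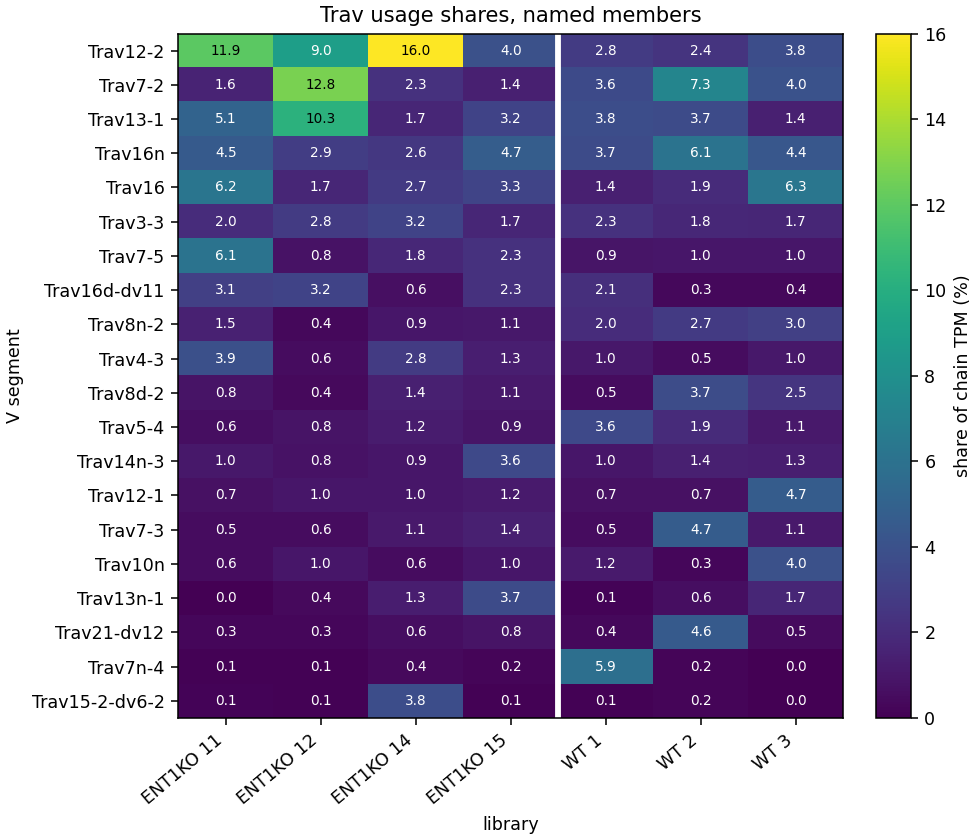
Usage of the 20 named Trav members, as the percent of summed Trav TPM (colour and printed value) in each library (columns, ENT1KO left of the white line and WT right of it), ordered by mean usage. Trav12-2 is at 8.98% or more in ENT1KO replicates 11, 12 and 14 and at 3.96% or less in the other libraries.

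Beta usage was on average less even in ENT1KO, with a separation of the genotypes that depended on the measure. The effective number of segments (the exponential of the Shannon entropy of the shares, which equals the number of segments if all are used alike) was 14.03, 15.02, 14.997 and 16.34 for Trbv in ENT1KO and 16.57, 16.48 and 16.44 in WT. The genotypes did not overlap on this measure, and the gap between ENT1KO replicate 15 and the WT libraries was small. The means were 15.1 ± 0.947 (SD, n = 4) and 16.5 ± 0.0697 (SD, n = 3). With Trbv4 and Trbv5 left out the values were 12.46, 13.75, 13.22 and 14.55 against 14.63, 14.72 and 14.64, still without overlap. The genotypes overlapped on normalized counts (13.9, 15.1, 14.3 and 15.4 against 15.3, 15.7 and 15.4), where ENT1KO replicate 15 lay above WT replicate 1. They also overlapped as an inverse Simpson index, where ENT1KO replicate 15 (14.29) lay above WT replicate 3 (14.07), and with segments merged by subgroup, where ENT1KO replicates 12 (11.57) and 15 (12.13) lay above WT replicate 2 (11.50). The 5 most used Trbv segments of a library held 56.8%, 51.6%, 50.6% and 46.2% of Trbv TPM in ENT1KO and 44.1%, 46.8% and 48.6% in WT, with overlap.

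Taken by single segments, the ENT1KO libraries ran from the most to the least skewed of all 7 in the alpha chain. The Trav effective number was 50.03, 43.73, 55.73 and 68.17 in ENT1KO and 62.30, 57.23 and 60.30 in WT. ENT1KO replicate 15 was thus more even than every WT library, and replicate 12 the least even. The difference of the means, -9.22%, was -3.28% without ENT1KO replicate 12 and -16.9% without ENT1KO replicate 15. Both libraries kept these places on normalized counts and as an inverse Simpson index. With segments merged by subgroup the values were 11.96, 10.67, 12.34 and 12.10 against 11.80, 11.74 and 12.52. ENT1KO replicate 12 was then still the least even, but WT replicate 3 was the most even. The 5 most used Trav segments held 33.8%, 39.2%, 28.4% and 19.2% in ENT1KO and 20.5%, 26.3% and 23.3% in WT. To reach 50% of Trav TPM took 12, 9, 16 and 21 segments in the ENT1KO libraries and 18, 15 and 17 in the WT libraries. The WT shares rest on fewer reads: the Trav members had 1367 to 2908 normalized counts in WT and 3853 to 4185 in ENT1KO, and the Trbv members 3575 to 8195 and 10132 to 12081. The part of this depth gap in the skew values was not tested. At 1 TPM or more stood 94, 94, 97 and 94 of the 99 Trav members in ENT1KO and 81, 77 and 87 in WT.

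**Figure D4:**
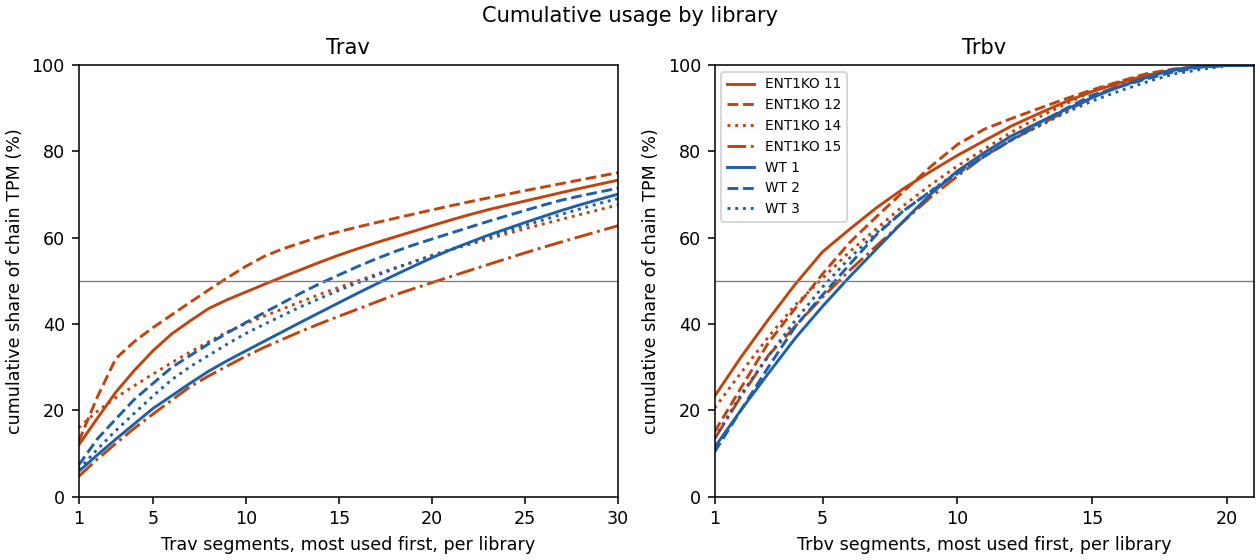
Cumulative usage in percent of chain TPM (y axis) against the number of segments taken from the most used down (x axis, up to 30 for Trav and 21 for Trbv), with a line per library, ENT1KO in red and WT in blue. The grey line marks 50%, which ENT1KO replicate 12 reaches with 9 Trav segments and replicate 15 with 21.

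Distances between whole usage profiles showed how private they were. The Bray-Curtis distance of 2 libraries is the part of their usage that does not match, from 0 for equal profiles to 1 for profiles with nothing in common. For Trbv it was 0.247 to 0.386 among the 6 pairs of ENT1KO libraries, with a mean of 0.309, and 0.163 to 0.213 among the 3 WT pairs, with a mean of 0.195. All ENT1KO pairs were thus farther apart than any WT pair. The ENT1KO pairs that include replicate 12 were the farthest, at 0.342 to 0.386, and the other ENT1KO pairs were at 0.247 to 0.271. Between the genotypes the 12 pairs ran from 0.205 to 0.352 (mean 0.266), no farther on average than within ENT1KO. For Trav the mean was 0.342 within ENT1KO, 0.35 within WT and 0.374 between the genotypes, with ranges that overlap. Of the 19 Trbv members with a mean usage of at least 1%, 16 had a larger coefficient of variation in ENT1KO, with a median of 50.9% against 31.6% in WT, while for 37 such Trav members the medians were 42.6% and 42.0%.

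Usage was also described by position, which the choice of members did not use. All Trav members lie on chromosome 14 between 52665385 and 54114209 (GRCm39), upstream of the Traj genes that start at 54392462. The 33 members nearest to the J genes (278 to 711 kb away) held 54.3%, 42.7%, 55.0% and 42.3% of Trav TPM in ENT1KO and 40.4%, 40.7% and 39.5% in WT. They include Trav12-2, and the 2 ENT1KO libraries with the highest Trav12-2 usage had the highest values. The 33 members in the middle held 24.7%, 36.5%, 27.2% and 37.6% in ENT1KO and 38.6%, 38.4% and 37.9% in WT. Every ENT1KO library was lower, replicate 15 only just. These shares are parts of the same total, so they do not move independently. The 33 farthest members held 17.8% to 20.9% in ENT1KO and 20.8% to 22.5% in WT. Segments without a copy letter (43 members) held 58.9% ± 6.69 (SD, n = 4) in ENT1KO and 50.9% ± 1.99 (SD, n = 3) in WT, those lettered d (31) 20.7% ± 1.63 and 22.5% ± 2.38, and those lettered n (25) 20.4% ± 5.16 and 26.6% ± 4.003. Most identical copies had equal TPM, but Trav12d-3 and Trav12n-3, also identical over the last 280 bases, did not. Trav12n-3 stood at 0, 57.34, 0 and 30.46 TPM in ENT1KO and 12.35, 0 and 14.52 TPM in WT, and Trav12d-3 was at 0.81 TPM or less in each library where Trav12n-3 was above 0. The split between d and n is therefore uncertain. The 10 members that can also join the delta chain held 5.01% to 11.1% in all libraries.

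**Figure D5:**
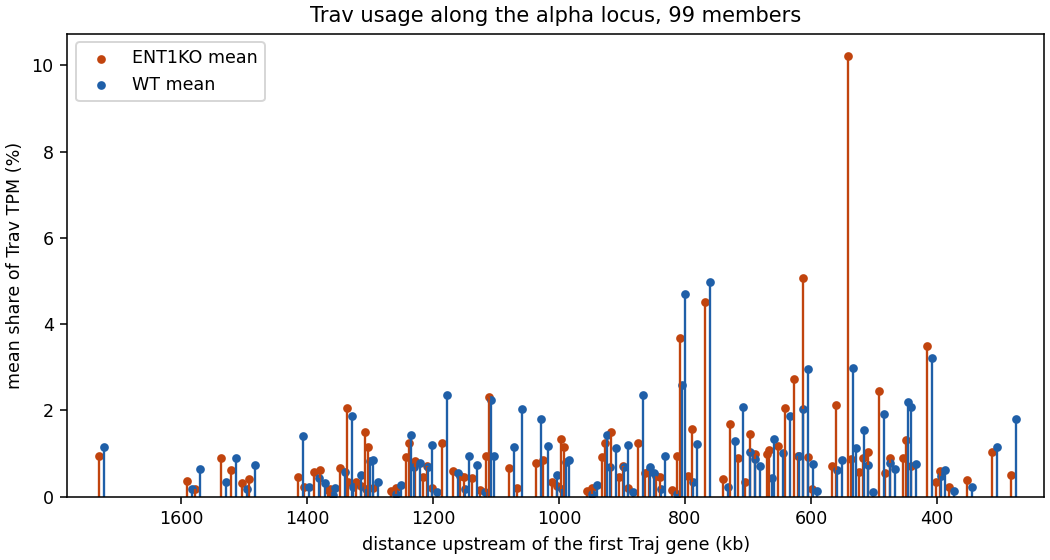
Mean usage of each of the 99 Trav members (y axis, percent of summed Trav TPM) against its distance upstream of the first Traj gene (x axis, kb), for ENT1KO (red, n = 4) and WT (blue, n = 3), drawn 4 kb to either side of the true position so that both can be seen. The tallest line is Trav12-2 in ENT1KO, and the other members are at 5.06% or less in both genotypes.

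The J genes, which join the V segments, could be read only from the normalized counts. Whether those counts come from rearranged receptor transcripts was not tested. All 13 Trbj and 51 Traj genes were listed at 0 TPM in every library, but had normalized counts. Trbj genes summed to 1740, 1281, 1228 and 922 in ENT1KO and to 630, 326 and 680 in WT, without overlap. The Trbj1 cluster held 74.5%, 66.0%, 71.2% and 66.6% of these counts in ENT1KO and 65.8%, 60.7% and 68.7% in WT. The largest Trbj1 shares were thus in ENT1KO replicates 11 and 14, where Trbv13-1 and Trbv13-2 stood out. Of the gamma and delta V genes Trgv2 had the highest level, at 79.3 ± 18.6 (SD, n = 4) against 53.01 ± 15.2 TPM (SD, n = 3), and did not pass (limma-trend adjusted p = 0.0752). Of the gamma and delta V genes that were tested, Trgv6 (1.76) and Trgv1 (0.91) rose on the log2 scale (limma-trend adjusted p = 0.0125 and 0.041).

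The rule's threshold left out 12 genes, of which 4 never reached 1 TPM, 7 did so in 1 library and 1 in 2 libraries. That last gene, Trav13d-4, stood at 3.09 TPM in ENT1KO replicate 14 and 4.85 TPM in WT replicate 1. Trbv21, the Trbv gene left out, was at 0.34, 1.55, 0.32 and 0.89 TPM in ENT1KO and at 0 in the WT libraries. Just inside were 6 genes with exactly 3 libraries at 1 TPM, such as Trav12d-3, at 17.07, 0.81, 25.52 and 0 TPM in ENT1KO and at 0, 9.9 and 0 TPM in WT. Of the members, 86 reached 1 TPM in all 7 libraries.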

How the data were processed

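The authors deposited TPM per gene, and per the file headers each TPM column has the same sum, which removes sequencing depth. They also deposited a comparison of KO and WT whose sample columns hold a signal, gene counts divided by 1 size factor per library, per the file headers, beside log2 fold changes, p-values and a score (the test statistic). Every value of these columns was a whole multiple of the smallest (tolerance 0.01), which gave the read totals. These totals were not used in a test: no count test was run and no counting intervals are given. Per the submitters' processing notes the genome was GRCm39 and the tools included STAR 2.7.1a, RSEM, Trimmomatic (0.35 and 0.38) and DESeq2 1.30.1, whose roles and settings are not stated.

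Genes at 1 TPM or more in at least 3 libraries (13798) entered a limma-trend fit of log2(TPM + 1) on genotype alone (robust eBayes), and p-values were adjusted over all of them by Benjamini-Hochberg (limma 3.58.1, R 4.3.3, tested on simulated data). Usage was computed in Python 3.11.15 and drawn with matplotlib 3.10.9. Sequences of all 120 members came from GENCODE M21 (GRCm38) by Ensembl gene ID and were compared with Biopython 1.88, and coordinates are those of the deposited table (GRCm39). The cysteine codon was searched on the coding strand near the 3' end as a tyrosine codon, any codon and a cysteine codon, and found in 118.

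Named members are, per chain, the 6 most used, the leader of each library, the 3 largest rises and falls in usage, and those at 3% or more and 3 or more times their median in a library, plus the 5 largest called differences. The members, lists and alternatives were chosen with earlier results of these data known. Exact permutation tests had been planned for the summed levels, effective numbers, 5 most used segments and profile distances. They are not given, because these are scores over members so chosen. Alternatives were other pseudocounts (0.1 and 5), filters, scalings, array weights, merged segments, another distance and index, and leaving out each library. The subtraction of the constant genes and the merging of equal copies were added after the data were seen.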

Additional observations from a re-analysis of the deposited data

Results flagged for a closer look

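Among the 4 ENT1KO libraries, 5 of 39 sets of values checked had a single library set apart from the others by more than 0.829 of the range, where chance alone sets apart about 1 in 20. Groups of 3 were not checked, so WT has no such values. Trbv4 was at 15.1% and Trbv31 at 7.87% of Trbv TPM in ENT1KO replicate 12. In the same library Trav7-2 was at 12.8% of Trav TPM. Trav15-2-dv6-2 was at 3.77% in ENT1KO replicate 14 and Trav14n-3 at 3.56% in ENT1KO replicate 15. The rate of 1 in 20 does not apply to these 5 segments, since all were named for high usage in a single library. The count of 5 of 39 can therefore not be read against that rate. Trav7-2 had no normalized counts, and Trbv4 few, while Trbv31 was at 10.6%, Trav15-2-dv6-2 at 4.95% and Trav14n-3 at 5.41% of the normalized counts of their chain in those libraries.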

How the results depend on the processing

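The count of 38 segments higher in ENT1KO became 24 with every gene above 0 tested, 18 on the normalized counts and, relative to the constant genes, 5, with 20 lower. Over the libraries left out in turn it ran from 15 to 47, and without WT replicate 3, which gave 47, 31 of the 38 were among them. Summed levels stayed higher in ENT1KO, by 66.2% to 165% for Trav and 79.4% to 180% for Trbv when a library was left out. On normalized counts the V to constant ratio was 3.98% higher for Trav, against -5.49% on TPM, and 15.2% higher for Trbv, against 2.87%. The difference in effective number (ENT1KO against WT) was -8.48% for Trbv, -5.07% on normalized counts, -13.6% with segments merged by subgroup and -16.0% as an inverse Simpson index, with overlap of the genotypes under these last 3. For Trav it was -9.22%, -16.6% on normalized counts and -25.3% as an inverse Simpson index. It was smaller with equal copies merged (-7.35%) and with segments merged by subgroup (-2.09%), and ran from -16.9% to -3.28% with a library left out. The Trbv profile distance, between minus within genotypes, was -0.00488 and ran from -0.0312 to 0.0204 without single libraries, so its sign is not fixed. Relative to the constant genes Trbv12-2 and Trbv16 changed sign, to -0.020 and -0.27. Over the 11 named called segments, 43 values under single settings lost the call with their sign kept, and the 2 that changed sign lost it as well. Trbv26 passed relative to the constant genes (-1.80). No paired analysis was possible because the genotypes share no replicate numbers. The WT shares rest on fewer reads than the ENT1KO shares, and the part of this in their values was not tested. In all 7 libraries 35 Trav members had 0 normalized counts.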
